A study of Saccharomyces cerevisiae with 4 samples.

Results

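The genes described here encode proteins of the large (60S) subunit of the cytosolic ribosome of the budding yeast Saccharomyces cerevisiae, from RPL1A to RPL33B. They were taken by systematic ORF name from a fixed list of 58, of which 57 stood in the deposited table of 6484 features. RPL22A (YLR061W) was not analysed here, and the remaining 57 form 24 complete pairs of A and B paralogs, RPL22B without its partner, and 8 genes without a paralog. Every one of the 57 had a mean above 20 normalised reads in both strains, so no filter on low values removed a member.

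RNA came from the parental strain BGL-6Kl and from a strain with the same background labelled ΔYGP1. Cultures were untreated and shaken at 200 rpm and 30 °C for 48 h in YPD, a medium rich in glucose at the start. The glucose left at 48 h is not among the values used here. Each strain gave 2 libraries that the labels call biological replicates. The series chose this time because an activity on the cells, which it calls BGL, then first differed clearly between the strains. YGP1, which encodes a secreted glycoprotein, had a mean of 62470 normalised reads in BGL-6Kl and 18171 in the strain labelled ΔYGP1, 29.1% of the parental level (authors' deposited table, adjusted p = 2.88e-08). The gene was thus not at 0 in the strain labelled as its deletion, and that strain is called the ΔYGP1-labelled strain throughout.

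A ribosome is built from a large and a small subunit. The large subunit joins amino acids at its peptidyl transferase centre, which is made of ribosomal RNA, and passes the growing chain out through a tunnel. Most yeast ribosomal protein genes survive as pairs from an ancient genome duplication, and both copies feed the same place in the ribosome. Their promoters are typically bound by Rap1, which recruits Fhl1 and its coactivator Ifh1. The TOR and protein kinase A pathways set their transcription by nutrient supply, so that these transcripts are abundant in growing yeast and fall when growth slows.

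The sequences upstream of 3 members are printed because they show the range of exact matches to Rap1-like letters among the genes. RPL8A and RPL11A are also among the members that fell. Each is the stretch from 450 to 151 bases before the start codon in the R64 assembly of RefSeq, read 5′ to 3′ on the gene's strand. Capitals mark matches on either strand to ACCCNNACA or to its shorter overlapping form CCNTACA. RPL13A lies at chrIV:307974-308273 on the plus strand, RPL8A at chrVIII:36176-36475 on the minus strand and RPL11A at chrXVI:731899-732198 on the minus strand.
RPL13A: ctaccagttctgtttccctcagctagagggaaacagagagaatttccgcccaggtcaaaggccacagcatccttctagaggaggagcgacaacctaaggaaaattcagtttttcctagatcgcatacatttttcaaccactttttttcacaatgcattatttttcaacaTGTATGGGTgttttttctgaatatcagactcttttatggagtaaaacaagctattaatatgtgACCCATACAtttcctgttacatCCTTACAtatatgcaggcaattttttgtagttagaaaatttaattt
RPL8A: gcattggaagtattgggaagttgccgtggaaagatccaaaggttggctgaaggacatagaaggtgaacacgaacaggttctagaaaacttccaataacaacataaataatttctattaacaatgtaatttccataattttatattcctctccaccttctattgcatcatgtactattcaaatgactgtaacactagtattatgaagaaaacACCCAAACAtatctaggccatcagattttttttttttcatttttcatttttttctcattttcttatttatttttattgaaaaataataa
RPL11A: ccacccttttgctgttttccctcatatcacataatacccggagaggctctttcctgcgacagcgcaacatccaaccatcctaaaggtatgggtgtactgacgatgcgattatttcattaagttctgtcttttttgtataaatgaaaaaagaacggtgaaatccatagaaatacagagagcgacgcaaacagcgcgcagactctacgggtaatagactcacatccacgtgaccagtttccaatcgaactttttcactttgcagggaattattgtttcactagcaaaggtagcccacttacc

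RPL13A held 2 matches to ACCCNNACA and 3 to CCNTACA, RPL8A held 1 match to ACCCNNACA, and RPL11A held no exact match to either form. The stretch ggtatgggt of RPL11A differs by 1 base from tgtatgggt, which would be a match on the other strand. ACCCNNACA stood in 22 of 57 member windows (38.6%) against 3.72% of 6000 windows of the same length, and CCNTACA in 30 (52.6%) against 11% of them. The 36 members with either form had a median log2 fold change of -1.18 and the 21 with no exact match to either had -1.33. Near matches were not counted. GCGATGAG, the PAC element of ribosome biogenesis genes, stood in 1 member window (1.75% against 2.12% of all windows). AAAAATTTT stood in 2 (3.51% against 5.17%), and AGGGG, the stress response element, in 8 (14% against 23.4%). A match is a description of letters, not a bound site, and CCNTACA and the window were chosen after the data were seen.

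The coding sequences of a pair are close enough that short reads can be shared, and the first 90 bases of the RPL24 coding sequence show how the copies can be told apart. Capitals mark the 11 positions at which the copies differ, in the coding sequences of R64, both on chromosome VII.
RPL24A: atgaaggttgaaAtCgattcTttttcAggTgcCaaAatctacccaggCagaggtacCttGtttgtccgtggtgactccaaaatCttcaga
RPL24B: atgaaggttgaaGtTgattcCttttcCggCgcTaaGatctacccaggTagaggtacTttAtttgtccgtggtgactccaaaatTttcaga
Over the whole coding sequence the RPL24 copies were 92.5% identical, and 4.06% of their stretches of 50 bases were shared. The share of such stretches was 81% for RPL1, 72.7% for RPL4, 60.9% for RPL11 and 56.9% for RPL7, and the split between A and B in these 4 pairs is uncertain, because the assignment of reads to near-identical copies is not given in the sources used here.

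The deposited values are strain means of normalised read counts, and the reads of each library were recovered from them for all 57 members. Libraries are lettered A and B within a strain by depth, and cannot be tied to the replicate numbers that the labels use. Summed over the features with recovered reads, the libraries held 12618449 and 10524878 reads in BGL-6Kl and 10154385 and 7419301 in the ΔYGP1-labelled strain, without the features whose means lay above 20000.

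The parental libraries differed from each other in these genes. Parental library B was above parental library A in 56 of 57 members, RPL10 being the exception, with a median log2 ratio of 0.59 (1.51-fold) against -0.0094 over 5408 features. The summed normalised reads of the members were 76527 and 107983 in parental libraries A and B and 42598 and 36272 in ΔYGP1-labelled libraries A and B. Both ΔYGP1-labelled sums thus lay below both parental sums, and the parental libraries were farther apart than the ΔYGP1-labelled ones. The median and the counts over the set are therefore also given against each parental library alone, and some members are also given without parental library B.

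Transcripts of the large subunit proteins were lower in the ΔYGP1-labelled strain across the set. The deposited log2 fold change was negative for all 57, and 30 fell at an adjusted p below 0.05 by the authors' deposited table (52.6%). Over all 6484 features, 10.3% were called lower and 9.65% higher, and 0 members were called higher by the authors or by limma, or at an unadjusted p below 0.05 in the authors' table. The remaining 27 did not pass. The median log2 fold change of the members was -1.20, with quartiles of -1.58 and -0.996, against a median of 0.0231 over all features. Their summed means were 92255 in BGL-6Kl and 39435 in the ΔYGP1-labelled strain, a 2.34-fold lower sum, and their share of all listed reads was 0.402% and 0.191%. The counts are relative to all reads, so a lower count of these transcripts and a changed RNA content per cell cannot be told apart. By its mean the median member ranked 2315 among all features in the parent and 3670 in the ΔYGP1-labelled strain.

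Of the 57 members, 55 had both ΔYGP1-labelled libraries below both parental libraries (96.5%), against 32.8% of the 6166 features with recovered reads. RPL1A and RPL28 were the exceptions, with overlapping strains. At least 2-fold lower means were seen for 41 members, of which 28 were among the 30 called. Of all 6484 features, 887 were called and changed at least 2-fold in either direction. Of 6408 features with a fold change, 6.77% lay below the median of the members. The share of all features at least 2-fold lower was not computed, here or against single parental libraries. With limma on the recovered libraries, 48 members were lower and 0 higher at an adjusted p below 0.05 (84.2%), against 14.6% of 6098 features lower, and all 30 called by the authors were among the 48. Without parental library B, limma called 30 members lower, against 6.36% of features. With ΔYGP1-labelled library A or B left out, limma called 0 features of any kind, with 43 and 37 members lower at an unadjusted p below 0.05. When the mean also had to be at least 10, these fits called many features of the whole set, members among them, so their calls rest on the filter. The median log2 fold change of the members was -1.4 without ΔYGP1-labelled library A and -1.13 without B.

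Against parental library A alone the median log2 fold change of the members was -0.925, with 55 of 57 lower and 27 at least 2-fold lower. Against parental library B alone it was -1.44, with 57 lower and 47 at least 2-fold lower. Library against library, the members' median log2 ratio was -0.846 for ΔYGP1-labelled A over parental A and -1.06 for B over A, and -1.41 and -1.55 for the same libraries over parental B. The direction thus held against either parental library for at least 55 members, and the size differed between them. The exceptions against library A alone were RPL28 and RPL1A, whose log2 fold change of -0.545 became 0.0554, a move of 1.52 times in fold and the largest of the 57. Members not called had a larger gap between the parental libraries (median log2 ratio 0.75) than members called lower (0.49). Their fold changes overlapped: those not called reached -1.63, and those called began at -0.974. Without parental library B the log2 fold change of RPL8A was -1.65 in place of -2.08. Among members not called, it was -1.14 in place of -1.63 for RPL25, -0.279 in place of -0.798 for RPL16B, -0.531 in place of -0.998 for RPL27A, -0.424 in place of -0.977 for RPL30 and -0.0525 in place of -0.475 for RPL7B. Across the 57 members, Spearman's rho of the authors' adjusted p with the absolute parental log2 difference was 0.64. A test that uses the spread between replicates would by itself tie its p-value to this difference. The points also share their libraries, so the rho is a description.

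**Figure D1:**
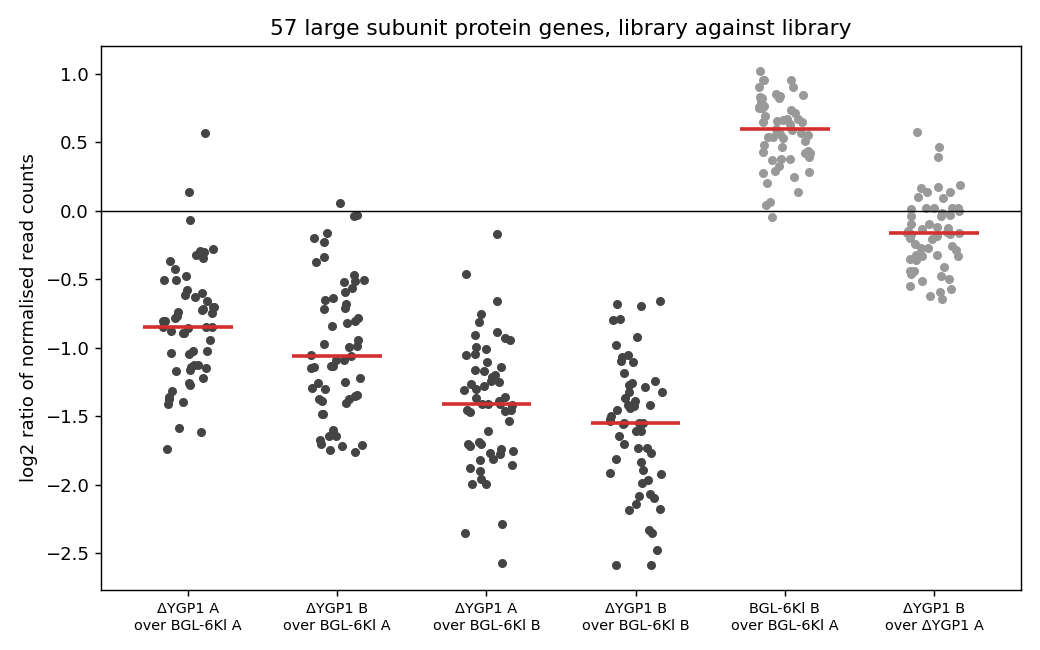
Log2 ratios of normalised read counts between single libraries for the 57 large subunit protein genes; each point is a gene and each red bar the median. The 4 ratios between strains have medians from -1.55 to -0.846, BGL-6Kl library B lies above A (median 0.59), and the ΔYGP1-labelled libraries differ less (median -0.161).

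**Figure D2:**
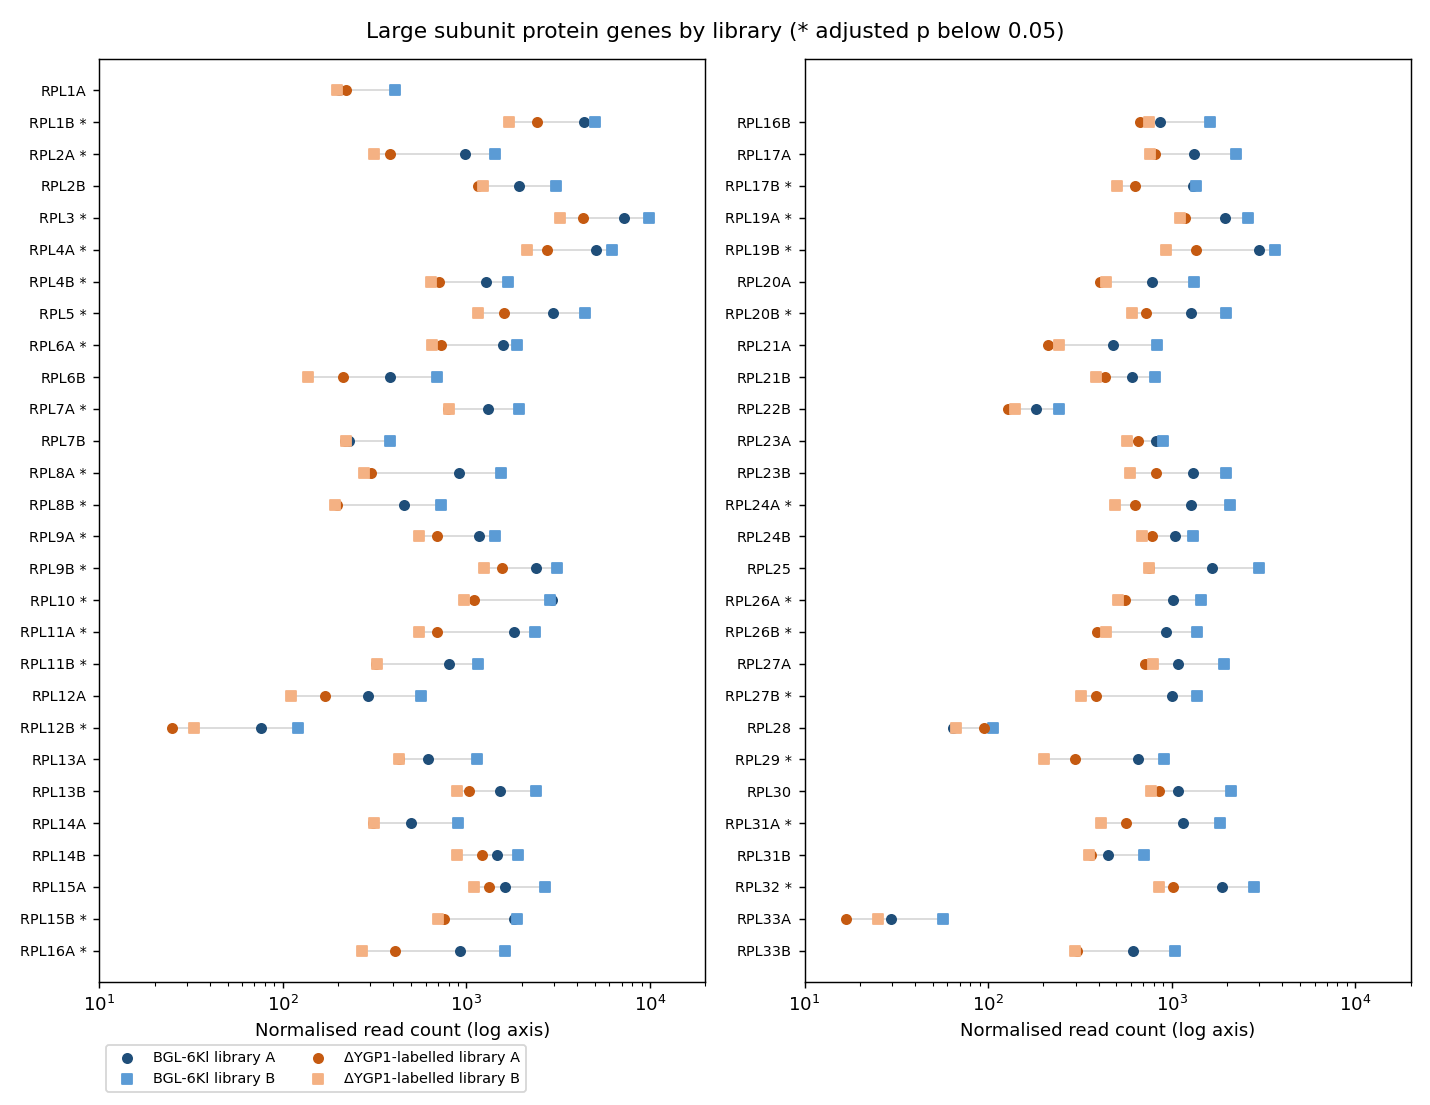
Normalised read count of members in the 4 libraries, on a log axis; circles are libraries A, squares libraries B, and asterisks mark an adjusted p below 0.05 in the authors' table. The orange ΔYGP1-labelled points lie left of the blue BGL-6Kl points except for RPL1A and RPL28.

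The proteins that surround the catalytic centre, RPL2, RPL3, RPL4 and RPL10, are encoded by 6 genes, of which 5 fell and RPL2B did not pass. RPL3 (YOR063W), whose protein lies closest to the peptidyl transferase centre, was the most abundant member by its mean, with 7175 and 9889 normalised reads in the BGL-6Kl libraries and 4306 and 3239 in the ΔYGP1-labelled ones. The strains did not overlap, and RPL3 was 2.26-fold lower (authors' deposited table, adjusted p = 0.0114). RPL4A (YBR031W), whose protein lines the exit tunnel, had 5087 and 6180 reads in the parent and 2745 and 2136 in the ΔYGP1-labelled strain, a 2.31-fold fall (authors' deposited table, adjusted p = 0.000617). RPL4B fell by nearly the same factor, 2.19-fold, and much of its sequence is shared with RPL4A.

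RPL10 (YLR075W) is one of the last proteins to join the subunit and is carried to it by the escort Sqt1. It had 2929 and 2844 reads in the BGL-6Kl libraries and 1100.4 and 966 in the ΔYGP1-labelled ones. The strains stood far apart and the parental libraries close together, and the fall was 2.79-fold (authors' deposited table, adjusted p = 1.5e-05). The log2 fold change of RPL10 was -1.48 over all libraries and -1.50 without parental library B. RPL2A (YFR031C-A), a copy of the gene for one of the most conserved ribosomal proteins, had 978 and 1424 reads against 381 and 313. It fell 3.46-fold (authors' deposited table, adjusted p = 0.00117), whereas RPL2B, with 1942 and 3086 against 1160.0 and 1236 reads, was 2.10-fold lower without passing (authors' deposited table, adjusted p = 0.0889).

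RPL5 and RPL11 bind 5S ribosomal RNA and enter the subunit with it as a particle. All 3 of their genes fell, with a median log2 fold change of -1.60, and 29.8% to 37.4% of the parental level remained. RPL5 (YPL131W), which has no paralog, had 2967 and 4406 reads in the BGL-6Kl libraries and 1597 and 1161 in the ΔYGP1-labelled ones, a 2.67-fold fall (authors' deposited table, adjusted p = 0.0163). RPL11A (YPR102C) had 1828 and 2368 reads against 695 and 555. By the authors' deposited table its fall was 3.36-fold with the smallest adjusted p of the 57, 1.9e-06. In limma its log2 fold change was -1.74 ± 0.22 (SE, adjusted p = 0.000695). RPL11B fell 3.03-fold, from 802 and 1163 reads to 322 and 326, and reads of RPL11A and RPL11B may be shared.

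RPL1 forms the mobile L1 stalk beside the exit site for transfer RNA, and RPL12 sits at the base of the stalk that recruits translation factors. Of their 4 genes, RPL1B and RPL12B (YDR418W) fell. RPL1B (YGL135W) had 4369 and 5031 reads in the parent and 2420.4 and 1716 in the ΔYGP1-labelled strain, the third highest mean among the members, and was 2.27-fold lower (authors' deposited table, adjusted p = 0.000955). Its copy RPL1A, with which it shares most of its sequence, held 202 and 410 parental reads against 222 and 197, so the strains overlapped (authors' deposited table, adjusted p = 0.651) and its mean was higher in the ΔYGP1-labelled strain without parental library B. RPL12B was among the least abundant members, with 76.2 and 121 reads in the parent and 24.9 and 32.6 in the ΔYGP1-labelled strain, and was 3.44-fold lower (authors' deposited table, adjusted p = 0.0109). RPL12A, with 292 and 566 parental reads against 169.8 and 110.4, was 3.06-fold lower without passing (authors' deposited table, adjusted p = 0.14). The log2 ratio of parental library B over A was 0.95 for RPL12A and 0.67 for RPL12B.

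The proteins around the mouth of the exit tunnel, RPL17, RPL19, RPL25, RPL26 and RPL31, are where chaperones and the signal recognition particle meet the new chain. Their 9 genes had a median log2 fold change of -1.23, and 6 fell: RPL17B, RPL19A, RPL19B, RPL26A, RPL26B and RPL31A. RPL19B (YBL027W) fell most clearly, from 2975 and 3637 reads to 1364 and 932 (2.88-fold, authors' deposited table, adjusted p = 1.41e-05). RPL25 (YOL127W), the docking protein for the signal recognition particle, had 1659.7 and 2991 reads in the BGL-6Kl libraries and 749 and 756 in the ΔYGP1-labelled ones. Its groups stood far apart and its mean was 3.09-fold lower, but its parental libraries differed by 0.85 on the log2 scale and it did not pass (authors' deposited table, adjusted p = 0.0667). In limma RPL25 had a log2 fold change of -1.56 ± 0.27 (SE) and an adjusted p of 0.00248. RPL19A fell from 1949 and 2616 reads to 1184 and 1104 (1.99-fold, authors' deposited table, adjusted p = 0.00748). The copies of RPL26, which forms the rim beside RPL25, both fell, RPL26A from 1011 and 1436 reads to 559.98 and 509.5 and RPL26B from 937 and 1380.2 to 391 and 440.5. RPL17B fell from 1303 and 1361.5 reads to 632 and 502 (2.35-fold, authors' deposited table, adjusted p = 0.000956). RPL17A, at 1327 and 2230.2 against 815 and 761, was 2.26-fold lower without passing (authors' deposited table, adjusted p = 0.113).

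RPL23, RPL24, RPL29 and RPL30 lie toward the small subunit or on the side where translation factors bind. Of their 6 genes, RPL24A and RPL29 (YFR032C-A) fell. RPL29 encodes a very small protein of the subunit and had 653 and 909 reads in the parent against 299 and 201, a 3.13-fold fall (authors' deposited table, adjusted p = 0.00127). RPL30 (YGL030W), whose protein can bind its own transcript and block its splicing, had 1089 and 2107 parental reads against 856 and 768. Its strains did not overlap, its parental libraries differed by 0.95 on the log2 scale, and it did not pass (1.97-fold lower, authors' deposited table, adjusted p = 0.332). RPL23A (YBL087C), whose protein lies at the binding site of the anti-association factor Tif6, had one of the smallest differences of the set, with 817 and 898 reads against 652 and 569 (1.40-fold lower, authors' deposited table, adjusted p = 0.298). Its copy RPL23B had 1304 and 1968 against 826 and 594 and was 2.30-fold lower without passing (authors' deposited table, adjusted p = 0.0532).

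The other 16 proteins, mostly on the solvent side and in the body of the subunit, are encoded by 29 genes here. Of these, 17 did not pass and 12 fell, among them RPL6A, RPL7A, RPL8A, RPL8B, RPL9A, RPL9B, RPL15B, RPL16A, RPL20B, RPL27B and RPL32. The median log2 fold change of the 29 genes was -1.07. RPL8A (YHL033C), a copy of the gene for a protein that joins early and binds ribosomal RNA, had 907 and 1544 reads in the BGL-6Kl libraries and 302 and 277 in the ΔYGP1-labelled ones, a 4.23-fold fall (authors' deposited table, adjusted p = 0.0126). RPL16A (YIL133C) had 919 and 1627 reads in the parent against 409 and 271, a 3.75-fold fall (authors' deposited table, adjusted p = 0.0414). RPL32 (YBL092W), which has no paralog, fell 2.51-fold, from 1878 and 2825 reads to 1020.4 and 852 (authors' deposited table, adjusted p = 0.0221).

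At the other end stood RPL28 (YGL103W), RPL7B and RPL23A. RPL28 encodes the protein through which yeast becomes resistant to cycloheximide when it is mutated. It had 64.1 and 106.9 reads in the BGL-6Kl libraries and 95.1 and 66.5 in the ΔYGP1-labelled ones, so the strains overlapped. Its log2 fold change of -0.081 turned positive without parental library B (0.335), without ΔYGP1-labelled library B (0.154) and with the strain means set to equal totals (0.0679). RPL7B (YPL198W) had 229 and 384 reads against 219 and 222, 72% of the parental mean (authors' deposited table, adjusted p = 0.539). Its copy RPL7A, with 1313 and 1923 reads against 793 and 804, fell 2.03-fold (authors' deposited table, adjusted p = 0.0412). The introns of RPL7A and RPL7B hold the small nucleolar RNA genes SNR39 and SNR59 in R64.

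The other pairs of the body of the subunit lay between these ends. RPL8B, the second copy of RPL8, had 459.7 and 725 parental reads against 197 and 192, a 3.04-fold fall (authors' deposited table, adjusted p = 0.0149). Both copies of RPL9 fell about equally. Its protein lies near the site where elongation factors bind, and its genes are counted here with the body of the subunit. RPL9A went from 1175 and 1424 reads to 689.8 and 552 (2.09-fold, authors' deposited table, adjusted p = 0.00561), and RPL9B from 2407 and 3131 to 1569 and 1250.0 (1.96-fold, authors' deposited table, adjusted p = 0.00942). Of RPL6, the major copy RPL6A fell from 1591 and 1889 reads to 723 and 646 (2.54-fold, authors' deposited table, adjusted p = 0.000183). RPL6B had 384 and 689 against 213 and 137 and was 3.06-fold lower without passing (authors' deposited table, adjusted p = 0.0912). The parental libraries lay 0.85 apart in log2 for RPL6B and 0.25 apart for RPL6A.

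RPL15, which binds ribosomal RNA deep in the subunit, had one copy past the threshold. RPL15B had parental libraries close to each other, with 1823 and 1875 reads against 756 and 697 (2.55-fold lower, authors' deposited table, adjusted p = 0.000137). RPL15A had 1632 and 2674 against 1331 and 1104 (1.77-fold lower, authors' deposited table, adjusted p = 0.26). RPL14 and RPL21 had no copy past it. RPL14A had 502 and 895 reads against 308 and 312.5 (2.25-fold lower, authors' deposited table, adjusted p = 0.162), and RPL14B had 1468 and 1913 against 1211 and 891 (1.61-fold lower, authors' deposited table, adjusted p = 0.114). RPL21A had 478 and 828 against 213 and 243 (2.86-fold lower, authors' deposited table, adjusted p = 0.0603), and RPL21B had 604 and 814 against 435 and 389 (1.72-fold lower, authors' deposited table, adjusted p = 0.0697). In each of these 4 genes both ΔYGP1-labelled libraries lay below both parental ones. Over all features with recovered reads, 32.8% did so. RPL22B had 182 and 244 reads against 128 and 141 (1.59-fold lower, authors' deposited table, adjusted p = 0.235). RPL33B had 619 and 1043 against 304 and 296, a 2.77-fold lower mean just short of the threshold (authors' deposited table, adjusted p = 0.0542).

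Levels per coding length were compared by protein, with the reads of both copies added. Most proteins lay in a narrow band in the parent, with a median of 5174 normalised reads per kb of coding sequence and quartiles of 4191 and 6099. In the ΔYGP1-labelled strain the median was 2101 and the quartiles 1543 and 2770. RPL19 was highest in the parent (9805 per kb), followed by RPL1 (7654), RPL3 (7330) and RPL9 (7063). RPL19 lay above the other 3 in both parental libraries, while the parental values of RPL1, RPL3 and RPL9 overlap and their order is not set beyond the spread. RPL28 was lowest, at 190.0 per kb in the parent and 179.6 in the ΔYGP1-labelled strain, below RPL22 (577 and 364, from RPL22B alone) and RPL12 (1059 and 339). RPL33 reached 2698 per kb through RPL33B, since RPL33A (YPL143W) had 29.4 and 57.1 reads against 16.9 and 25.1 and was the least abundant of the 57 genes. The summed level of 32 of the 33 proteins was lower in both ΔYGP1-labelled libraries than in both parental ones, RPL28 being the exception. This count adds up the same genes as the count by gene. Of single features with recovered reads, 32.8% of 6166 were separated in this direction. RPL7B, RPL12B and RPL28 each have a listed ORF on the opposite strand with a neighbouring systematic name that R64 does not annotate. These ORFs had means from 1.33 to 2.67, and whether they share reads with the members was not tested.

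The A and B copies of a pair were compared in their fold change. In 6 of 24 pairs both copies fell (RPL4, RPL8, RPL9, RPL11, RPL19 and RPL26), in 13 one copy passed the test, and in 5 neither did (RPL13, RPL14, RPL21, RPL23 and RPL33). A passing and a missing copy do not show a difference by themselves, so the log2 ratio of A to B was followed in each library. It had no overlap between the strains in 16 of 24 pairs, with the A share lower in the ΔYGP1-labelled strain in 9 and higher in 7. By order alone, 2 libraries against 2 separate in one direction or the other in 0.333 of cases. No share over other gene pairs was computed. Some gaps between the strains were very small, such as 0.0217 in log2 for RPL33 and 0.0418 for RPL9. The A to B ratios are given as a description, and the difference between copies was not tested. The median absolute difference between the copies in log2 fold change was 0.505. Within a strain, the median absolute difference of the A to B log2 ratio was 0.235 between the parental libraries and 0.345 between the ΔYGP1-labelled ones. The A copy fell more in 14 pairs and the B copy in 10, and the more abundant copy in 12.

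**Figure D3:**
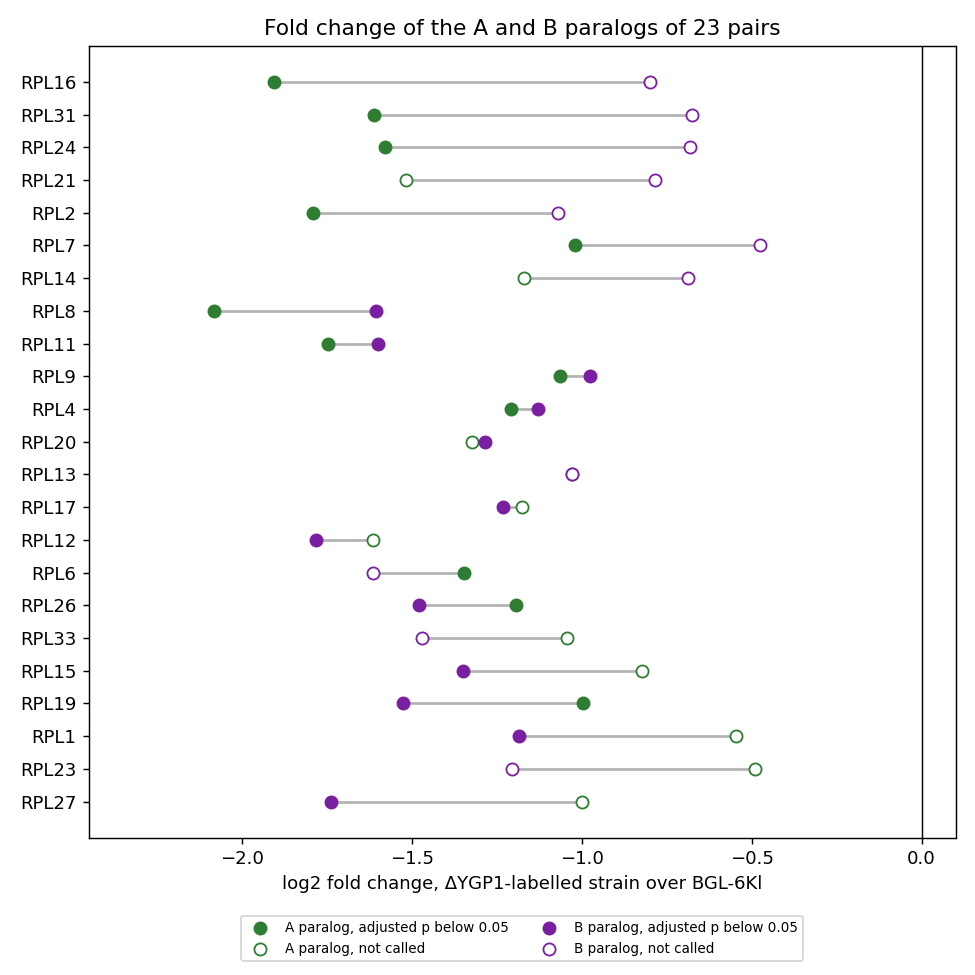
Log2 fold change of the A (green) and B (purple) copies of 23 pairs, ordered by the difference between the copies; filled points have an adjusted p below 0.05 in the authors' table and open points do not. The A copy of RPL16 lies 1.11 log2 units below its B copy, the points of RPL13 coincide, and no point lies above 0.

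RPL16, a protein of the solvent side, changed from 51.6% and 50.3% A to 38.0% and 26.5% A. RPL16B (YNL069C) had 861 and 1609 reads against 668 and 752 and did not pass (1.74-fold lower, authors' deposited table, adjusted p = 0.379).

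RPL31 went from 72.0% and 72.2% A to 60.6% and 53.7% A, and kept A as the major copy. RPL31A (YDL075W) had 1153 and 1822 reads against 561 and 413 (3.06-fold lower, authors' deposited table, adjusted p = 0.021). RPL31B (YLR406C) had 449 and 703 against 364 and 356 and was 1.60-fold lower without passing. RPL24, a protein that replaces the assembly factor Rlp24 late in maturation, went from 55% and 61.2% A to 44.7% and 41.6% A. RPL24A (YGL031C) had 1281 and 2068 reads against 628 and 493 (2.99-fold lower, authors' deposited table, adjusted p = 0.0292), and RPL24B (YGR148C) had 1046 and 1314 against 779 and 693. The A copy had the lower log2 fold change in RPL16, RPL31 and RPL24, and for RPL24 the difference was -0.897 over all libraries and -0.684 without parental library B.

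RPL27 went the other way, from 51.9% and 58.4% A to 64.8% and 71.0% A. RPL27B (YDR471W) had 1010.4 and 1366 reads in the parent against 389 and 323 and fell 3.34-fold (authors' deposited table, adjusted p = 4.82e-05). RPL27A (YHR010W) had 1088 and 1921 against 718 and 788 and did not pass (2.0-fold lower, authors' deposited table, adjusted p = 0.217). None of the stretches of 50 bases was shared between the copies of RPL16, RPL27 or RPL31. The share was 4.06% for RPL24.

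RPL13 and RPL20 had the smallest differences between copies. RPL13A (YDL082W) had 614 and 1148 reads in the BGL-6Kl libraries and 432 and 430.5 in the ΔYGP1-labelled ones, and RPL13B (YMR142C) had 1533 and 2381 against 1027.5 and 891. Both were 2.04-fold lower, neither passed, and the copies differed by 0.0018 in log2 fold change (0.167 without parental library B). RPL20A (YMR242C) had 784 and 1329 reads against 408 and 437 (2.50-fold lower, authors' deposited table, adjusted p = 0.0788). RPL20B (YOR312C) had 1268 and 1989 against 724 and 611 (2.44-fold lower, authors' deposited table, adjusted p = 0.0476). One copy of RPL20 passed and the other did not, with log2 fold changes 0.0373 apart.

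Added over both copies, the pairs were 1.75-fold (RPL14) to 3.75-fold (RPL8) lower, with a median of 2.40. In 18 of 24 pairs the same copy was the major one in all 4 libraries, among them RPL1, RPL7, RPL12 and RPL33 with a strong bias. The split of reads is uncertain for RPL1 and RPL7, whose copies share most of their sequence. The minor copies RPL33A and RPL12B had parental means of only 43.3 and 98.8. RPL15, RPL16, RPL19, RPL21 and RPL24 were among the exceptions.

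**Figure D4:**
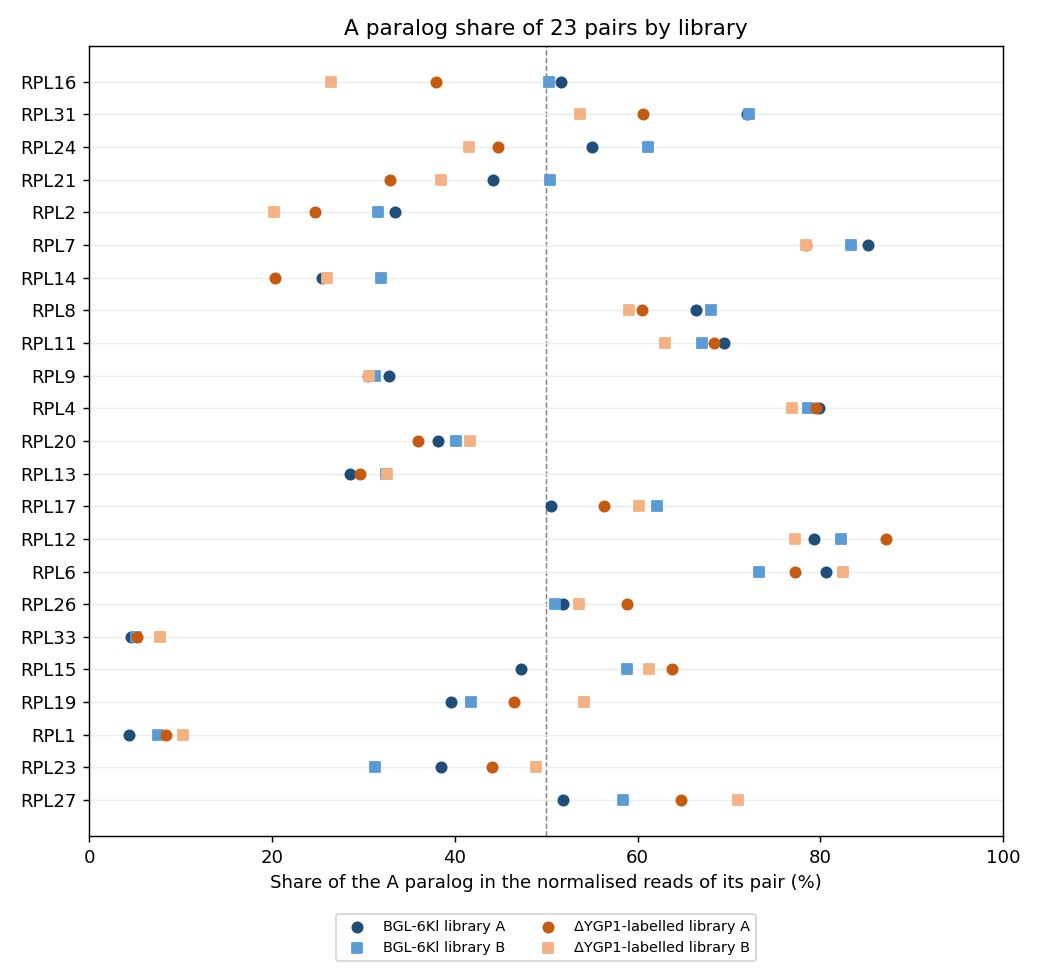
Share of the A copy in the normalised reads of each of 23 pairs, in percent, in the 4 libraries; the dashed line marks equal shares. RPL16 moves from 51.6% and 50.3% in BGL-6Kl to 38.0% and 26.5% in the ΔYGP1-labelled strain, RPL27 moves upward, and RPL4, RPL9 and RPL13 stay within a few percent.

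Ribosomal protein genes make up a large part of the yeast genes that have introns. Of the members, 36 have 1 or 2 introns in R64 and 21 have none. Among those with introns 13 fell and 23 did not pass, with a median log2 fold change of -1.17. Among those without, 17 fell and 4 did not pass, with a median of -1.35. Parental library B exceeded A by a median log2 ratio of 0.66 in genes with introns and 0.48 in genes without, and its part in the counts was not tested. With limma, 28 of 36 and 20 of 21 were lower. Over all features, 10.3% were called lower by the authors' table and 14.6% of 6098 by limma. No share over other genes with or without introns was computed.

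Other ribosomal protein genes were also lower in part. Of the 23 remaining genes of the large subunit and its stalk, 9 fell (39.1%) and 0 rose by the authors' table, with a median log2 fold change of -0.812, and limma called 1 higher, RPL41A. RPL37A fell most among those called (3.27-fold, authors' deposited table, adjusted p = 0.00355). Of 57 genes of the small subunit, 29 fell (50.9%) and 0 rose by the authors' table, by limma or at an unadjusted p below 0.05, with a median of -1.18. RPS3 fell most, from 4573 and 5233 parental reads to 1420.4 and 872 (4.28-fold, authors' deposited table, adjusted p = 5.09e-10). The median parental B over A log2 ratio was 0.44 and 0.57 in these lists and 0.59 in the members.

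Of 14 regulators of ribosomal protein genes, 4 fell (28.6%, against 10.3% of all features) and 0 rose by the authors' table or limma, with 2 higher at an unadjusted p below 0.05 and a median log2 fold change of -0.40. CRF1, the corepressor that competes with Ifh1 for Fhl1, fell most, from 3528 and 2896 reads to 1427.5 and 911 (2.75-fold, authors' deposited table, adjusted p = 2.86e-05). The activators RAP1 (1.95-fold) and SFP1 (1.91-fold) and the repressor STB3 (1.86-fold) were the other 3. The list thus holds activators and repressors among those that fell, and its parental libraries differed little (median log2 ratio -0.077). In limma without parental library B, 2 of the 14 were lower.

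Few genes for escorts of single large subunit proteins, late maturation factors and elongation factors were called. The share called lower was 11.8% of late factors and 11.1% of elongation factors, near the 10.3% of all features, and 1 of 5 escorts. limma called 5 of 17 late factors, 1 elongation factor and 1 escort lower, against 14.6% of 6098 features. Both ΔYGP1-labelled libraries lay below both parental ones in 11 of 17 late factors and 4 of 5 escorts. The same held for 4 of 8 elongation factors with recovered reads, against 32.8% of 6166 features. Of the escorts, RRB1, which carries RPL3, fell 2.43-fold (379 and 402 reads against 159.99 and 162, authors' deposited table, adjusted p = 0.00333). Of 17 late maturation factors, RRS1 and ARX1 fell, with a median log2 fold change of -0.81. RRS1, which helps bring in the 5S particle, was 2.35-fold lower (authors' deposited table, adjusted p = 0.00474). Of 9 genes of elongation factors, YEF3, the fungal elongation factor 3, fell 1.95-fold (authors' deposited table, adjusted p = 0.031), and the median of the list was -0.191. In these 3 lists 0 genes rose by the authors' table, by limma or at an unadjusted p below 0.05. In limma without parental library B, 1 late factor and 0 elongation factors were lower.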

How the data were processed

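RNA-seq of 2 libraries per strain was analysed from 1 deposited table. Per the file headers and values, its read counts are a signal: the mean over both libraries of a strain of reads that the authors divided by a size factor. The authors also deposited a log2 fold change and a p-value with its adjusted p-value, whose threshold of 0.05 gives the calls. The sources used here do not give the aligner, counter, strandedness, build or test, so reads of antisense genes and near-identical copies cannot be told apart. The design foresaw this case, and the authors' adjusted p-values are the main result.

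A strain mean is the sum of 2 products, each the whole read number of a library times that library's own step. Pairs matching the mean within 0.55 units of its last digit were unique for 6289 features of BGL-6Kl and 6197 of the ΔYGP1-labelled strain (means above 20000 left out). Size factors were 1.155 and 0.9636, and 1.125 and 0.7968. limma 3.58.1 in R 4.3.3 (moderated, 2-sided, Benjamini-Hochberg over all features) was fitted to log2(value + 1) where the mean was at least 1. Both steps were run on simulated data in which genes varied independently with the same dispersion. The simulation held no shift shared by many genes of a library, so it does not cover the difference between the parental libraries. The log2(value + 1) scale understates changes of low features.

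R64 served for names, introns, coding lengths and sequence; 5869 of 6484 features matched its locus tags. Library values stand in place of SDs. Members, lists and tests were chosen with earlier results of these data known. Named in full were the 6 largest and 3 smallest falls, 3 highest and 2 lowest means, 5 pairs that differed most and 2 least, the 8 genes without a paralog, and from each other list at most the largest called fall and rise; genes outside this rule, and the grouping by role, were chosen after their values were seen. An item that this rule would name is not reported here by name or in the plots of named genes, and the counts and medians include it.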

Additional observations from a re-analysis of the deposited data

How the results depend on the processing

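The direction was negative for 55 to 57 of the 57 members whichever library was left out, and for 56 with the strain means set to equal totals, which moves all features by 0.15 on the log2 scale. The median log2 fold change ranged from -1.44 to -0.925, and the median difference between copies from 0.468 to 0.544, when each library was left out. All of their alternatives moved them by less than the spread between libraries. The number of members called lower was 30 in the authors' table and 17 at an adjusted p below 0.01. Over all 6484 features, 1296 and 793 were called in either direction. In limma 48 members were lower, with 48 at a pseudocount of 5 and 48 without a filter. With a mean of at least 10 it was 47, and 20 without the intensity trend. In the same order, limma called 1735 of 6098 features in either direction, 1741 of 6098, 1732 of 6166, 1745 of 5762 and 678 of 6098. Leaving out one library changed the calls, both over the members and over all features. Without either ΔYGP1-labelled library limma called 0 features of any kind, and 43 and 37 members were lower at an unadjusted p below 0.05. With a mean of at least 10, an alternative added after the data were seen, the same fits gave 50 and 24 when parental library A or B was left out, and 45 and 43 when ΔYGP1-labelled library A or B was. In these fits the lone library is assumed to vary like the other strain. Calls in the other lists, by alternatives also added after the data were seen, were at an adjusted p below 0.01 4 for the rest of the large subunit, 11 for the small subunit, 1 for late maturation factors and 0 for elongation factors. In limma they were 45 for the small subunit and 5 for late factors, and without parental library B 2 for regulators, 1 for late factors and 0 for elongation factors. In the window from 350 to 51 bases before the start codon ACCCNNACA stood in 13 members and CCNTACA in 18. The cause of these changes was not tested. RPL28 changed sign without parental library B, without ΔYGP1-labelled library B and with the strain means set to equal totals, and RPL1A did so without parental library B. No member called lower by the authors changed sign when a library was left out. No paired analysis was possible because the deposited means carry no replicate numbers. The fold changes of RPL33A, RPL28 and RPL12B rest on few reads, with parental means of 43.3, 85.5 and 98.8. The reason for these low counts was not tested.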

Other observations

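RPL41A, which encodes the smallest protein of the large subunit and is not among the genes above, was the one ribosomal protein gene with a positive log2 fold change above 0.5. It had 3411 and 3776 normalised reads in BGL-6Kl and 4944 and 7181 in the ΔYGP1-labelled libraries, a 1.69-fold higher mean that did not pass (authors' deposited table, adjusted p = 0.132). In limma it passed, with a log2 fold change of 0.73 ± 0.23 (SE, adjusted p = 0.0385). Its copy RPL41B fell 1.79-fold, from 3319 and 3915 reads to 1973 and 2070 (authors' deposited table, adjusted p = 0.0207). Both genes were named after their values were seen.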
